A study of Mus musculus with 6 samples.

Results

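Cholesterol synthesis and its control by SREBP2 are represented here by 29 genes, chosen by symbol: 19 enzymes of the route from acetyl-CoA to cholesterol, 4 genes of SREBP2 control, and 6 genes of sterol transport, lipoprotein uptake and esterification. All 29 were found among the 23282 genes measured, and the list does not hold every gene of the pathway. The hepatocytes came from livers of C57BL6/N mice, perfused with collagenase. After 3 h of attachment the medium was changed, and 3 cultures were kept for 24 h with no addition (control) and 3 received recombinant IL-1β, an inflammatory cytokine made mainly by macrophages. The authors' own summary counts 2 cultures in a group while naming 3, and all 3 were used. The age and sex of the mice are not given in the sources used here, and the authors state a dose for other cultures treated with IL-1β but not for those sequenced. Nothing states that the 3 samples of a group came from separate animals, so p-values measure the spread between these samples, which may be technical.

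Messenger RNA was read from its 3′ end by QuantSeq, so that each read stands for an RNA molecule's end and not for its length. Library totals were 10538667, 11105408 and 9566434 counts for the controls and 9538741, 10554243 and 11037083 for the IL-1β samples. Levels are given in CPM, counts brought to one library size with TMM factors. A floor of 3 counts corresponded to 0.269 to 0.321 CPM, for counting error only. Groups were compared with edgeR's quasi-likelihood test over 11657 genes that passed its count filter, and a gene was called at a Benjamini-Hochberg adjusted p below 0.05. In bulk RNA, fewer cells of a type and less RNA per cell cannot be told apart.

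Cells build cholesterol from acetyl-CoA through mevalonate, the prenyl diphosphates, squalene and lanosterol, and the liver is a main site of this synthesis. SREBP2 is a transcription factor made as a precursor in the endoplasmic reticulum, where the escort protein SCAP binds it and the INSIG proteins hold the complex back while sterols are plentiful. When sterols fall, the complex moves to the Golgi, SREBP2 is cleaved there, and the released part raises transcription of the synthesis genes in the nucleus.

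After IL-1β, most of these genes differed little from control, and the calls were small in size. Fdps, Npc2, Nsdhl, Mvd and Sqle were higher and Ebp was lower. Of the 28 genes tested, 5 were called higher, or 17.9%, where 6.97% of all genes tested were called higher. The 1 gene called lower was 3.57% of the 28, where 6.44% of all genes tested were called lower. Groups did not overlap with IL-1β higher in 9 of the 28, or 32.1% against 14% of all genes tested, and with IL-1β lower in 1, against 14.2%. The median log2 fold change was 0.06 over the 28 and -0.0018 over all genes tested, and the median of its absolute value was 0.14 and 0.16. Among the 28, log2 fold changes ranged from -0.39 for Pmvk to 0.59 for Mvd. The value of Pmvk, which was not called, became -0.21 when IL-1β replicate 1 was left out, or -0.55 when replicate 2 was.

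The count of 5 depended on the scaling and on single libraries. Scaling by total counts alone left 2 genes called higher and upper-quartile scaling left 3. Of all 11657 genes tested, these scalings called 662 and 733 higher, where the main fit called 812. Total-count scaling also moved the share of higher genes among all calls from 52.0% to 39.6%. Leaving out control replicate 2, control replicate 3, IL-1β replicate 2 or IL-1β replicate 3 gave 2, and leaving out IL-1β replicate 1 gave 3. In that order, these left-out fits called 661, 713, 614, 625 and 646 of all genes higher, from 11880 to 11923 tested. In each of these scalings and left-out fits, the sterol count thus fell by a larger share than the count over all genes. Fdps and Npc2 were called in each of these fits, and Ebp was called lower in each. Summed over the 19 enzymes, the level was 1075, 1139 and 1124 CPM in the controls and 1206, 1177 and 1173 CPM after IL-1β. These sums did not overlap, with group means in a ratio of 1.07. With total-count scaling they were 1087, 1147 and 1168 against 1183, 1162 and 1144 CPM, which overlapped, in a ratio of 1.03.

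**Figure D1:**
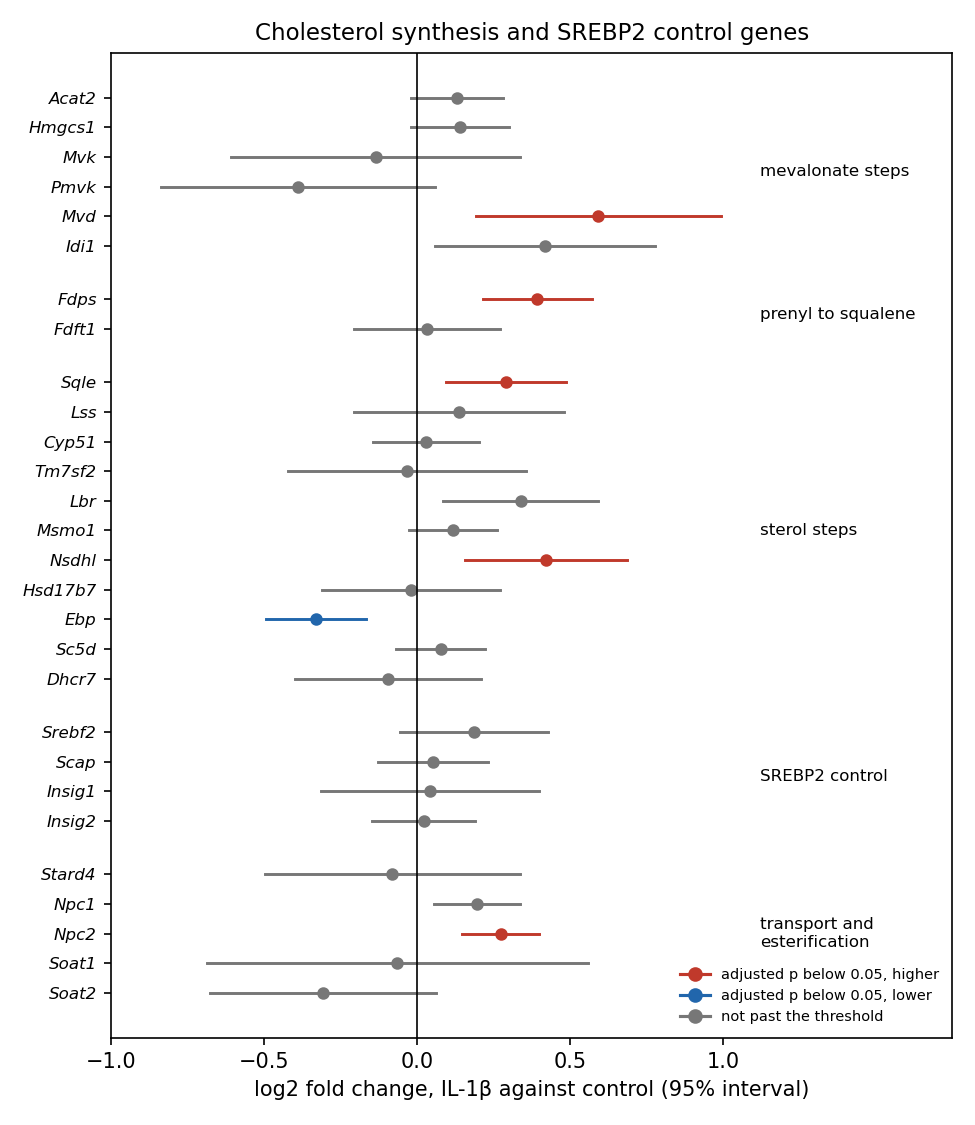
The log2 fold change of IL-1β against control (x axis) for the 28 tested genes, grouped by role, with 95% intervals as lines. The 5 genes called higher lie between 0.27 and 0.59, Ebp lies at -0.33, and the 4 genes of SREBP2 control lie between 0.02 and 0.19.

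In the mevalonate steps, 1 of 6 genes was called higher and 0 lower, too few to set beside the 6.97% and 6.44% of all genes tested, and the median log2 fold change was 0.13. The call was Mvd, at chr8:122433596-122443422 on the minus strand of GRCm38, whose product decarboxylates mevalonate diphosphate to isopentenyl diphosphate. Its level was 10.1, 7.79 and 7.36 CPM in the controls and 11.2, 12.4 and 14.5 CPM after IL-1β. All 3 IL-1β samples were above the highest control, replicate 1. The log2 fold change was 0.59 (standard error 0.19, edgeR adjusted p = 0.0424). This call was lost with DESeq2 (adjusted p = 0.0508), with total-count scaling (0.0622) and with upper-quartile scaling (0.0556). It was also lost without control replicate 2 (0.127), control replicate 3 (0.154), IL-1β replicate 2 (0.0971) or IL-1β replicate 3 (0.211).

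Idi1 encodes the isomerase that turns isopentenyl into dimethylallyl diphosphate. Idi1 had 11.7, 9.85 and 10.6 CPM in the controls and 16.8, 13.3 and 13.01 CPM after IL-1β. The groups did not overlap, yet the log2 fold change of 0.42 (standard error 0.17) did not pass the test (edgeR adjusted p = 0.131). Idi1 is also uncertain by sequence, since 40.6% of the 75-nt windows in the last 500 nt of its annotated transcripts occur in copies elsewhere, among them the processed pseudogene Gm13502. How reads that match several genes were counted is not given in the sources used here.

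Of the enzymes at the start of the route, Hmgcs1 and Acat2 had narrower intervals than Mvd, and Mvk and Pmvk wider ones. Hmgcs1, which encodes the cytosolic synthase that makes HMG-CoA, had 144, 153 and 161 CPM in the controls and 185, 165 and 154 CPM after IL-1β. These ranges overlapped, since IL-1β replicate 3 lay below control replicate 3. Its log2 fold change was 0.14 with a 95% interval of -0.02 to 0.30, and 0.07 or 0.20 when IL-1β replicate 1 or 3 was left out. Acat2, the thiolase that joins acetyl-CoA units, had 0.13 (-0.02 to 0.28), with 16.3% of its 3′ windows shared with its neighbour Acat3. The kinases Mvk and Pmvk, which phosphorylate mevalonate in turn, had -0.14 (-0.61 to 0.34) and -0.39 (-0.84 to 0.06). Their counts were low, from 57 to 135 in a library, and both intervals reached past a change of 1.5-fold.

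Of the 2 prenyl to squalene enzymes, too few for a share to be read, Fdps was called higher and Fdft1 was not called. Fdps, at chr3:89093588-89101967 on the minus strand, encodes farnesyl diphosphate synthase, whose product feeds both sterols and protein prenylation. Its level was 53.5, 52.6 and 52.0 CPM in the controls and 69.4, 69.4 and 68.8 CPM after IL-1β. The samples of each group lay close together, with a wide gap between the groups. Its log2 fold change came to 0.39 (standard error 0.09, edgeR adjusted p = 0.00223), a level 1.31 times that of the controls. The estimate stayed between 0.38 and 0.40 with a sample left out. Of its 3′ windows, 35.5% also occur in processed pseudogenes at other loci and 64.0% when the predicted protein-coding gene Gm43738 at the same locus is included, so its counts carry the uncertainty given for Idi1.

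Fdft1 encodes squalene synthase, the first enzyme committed to sterols. It had 34.2, 44.8 and 35.2 CPM in the controls and 35.7, 41.0 and 40.1 CPM after IL-1β. The groups overlapped across most of their range. Its log2 fold change was 0.03 (-0.21 to 0.27), and it turned to -0.02 with total-count scaling. Fdft1 overlaps Ctsb on the opposite strand, and whether counting used the strand is not given in the sources used here.

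Among the 11 enzymes from squalene to cholesterol, 2 were called higher (18.2%, beside 6.97% of all genes) and 1 lower (9.09%, beside 6.44%), with a median log2 fold change of 0.08. Sqle, at chr15:59315092-59331193 on the plus strand, encodes squalene epoxidase, a control point of the route. Its level was 46.0, 41.3 and 46.9 CPM in the controls and 53.1, 56.0 and 54.8 CPM after IL-1β. Every IL-1β sample was above every control, with control replicate 2 lowest. This gave a log2 fold change of 0.29 (standard error 0.10, edgeR adjusted p = 0.0422). The call was lost with total-count scaling (0.121), upper-quartile scaling (0.0706) or no filter (0.0501). It was also lost without control replicate 2 (0.179), control replicate 3 (0.0562), or IL-1β replicate 1, 2 or 3 (0.0746, 0.135 and 0.11).

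Nsdhl, at chrX:72918521-72958528 on the plus strand, encodes a dehydrogenase that acts with MSMO1 and HSD17B7 to remove the methyl groups of lanosterol. It had 21.98, 17.9 and 19.3 CPM in the controls and 25.2, 26.03 and 28.0 CPM after IL-1β. Groups were separate, although control replicate 1 was close to the lowest IL-1β sample. For Nsdhl the log2 fold change was 0.42 (standard error 0.13, edgeR adjusted p = 0.029). Total-count scaling gave an adjusted p of 0.0595. Fits without control replicate 2 (0.128), control replicate 3 (0.081), or IL-1β replicate 1, 2 or 3 (0.0514, 0.0732 and 0.129) also lost the call. The partners of Nsdhl were not called: Msmo1 had a log2 fold change of 0.12 (-0.03 to 0.26) and Hsd17b7 of -0.02 (-0.31 to 0.27). Msmo1 samples did not overlap all the same, at 142, 148 and 153 CPM in the controls and 161, 162 and 158 CPM after IL-1β.

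Ebp was the gene called lower. It lies at chrX:8185329-8193512 on the minus strand and encodes the isomerase that shifts a double bond in the sterol ring, a step between lanosterol and cholesterol. Its level was 110.1, 123 and 112 CPM in the controls and 89.7, 96.4 and 88.2 CPM after IL-1β. The highest IL-1β sample was below the lowest control. Ebp thus had a log2 fold change of -0.33 (standard error 0.08, edgeR adjusted p = 0.00457), or 0.795 times the control level. With a sample left out it lay between -0.37 and -0.28, with adjusted p up to 0.0437. An unmoderated test on log2(CPM + 1) gave an adjusted p of 0.0889. The 6 predicted genes annotated across Ebp had 0 counts in every library. The enzymes Sc5d and Dhcr7, a desaturase and a reductase at the end of the route, had log2 fold changes of 0.08 (-0.07 to 0.22) and -0.10 (-0.40 to 0.21).

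Lbr and Tm7sf2 encode reductases for the same step of the route. Lbr, whose product is also a receptor of the nuclear lamina, had 21.5, 26.3 and 24.7 CPM in the controls and 30.6, 28.1 and 33.0 CPM after IL-1β. Its groups did not overlap, and its log2 fold change of 0.34 (standard error 0.12) had an edgeR adjusted p of 0.0727. Tm7sf2 had -0.03 (-0.42 to 0.36), and 9.95% of its 3′ windows lie in Vps51, which overlaps it on the same strand. Lss, the lanosterol synthase, had 0.14 (-0.21 to 0.48), and its highest value was 24.0 CPM in IL-1β replicate 2, with the other samples between 15.1 and 17.8 CPM. Lss overlaps 4930483K19Rik on the opposite strand. Without that sample its log2 fold change was -0.10. Cyp51, the lanosterol demethylase, had 0.03 (-0.15 to 0.20), and the sign turned with total-count scaling (-0.03).

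**Figure D2:**
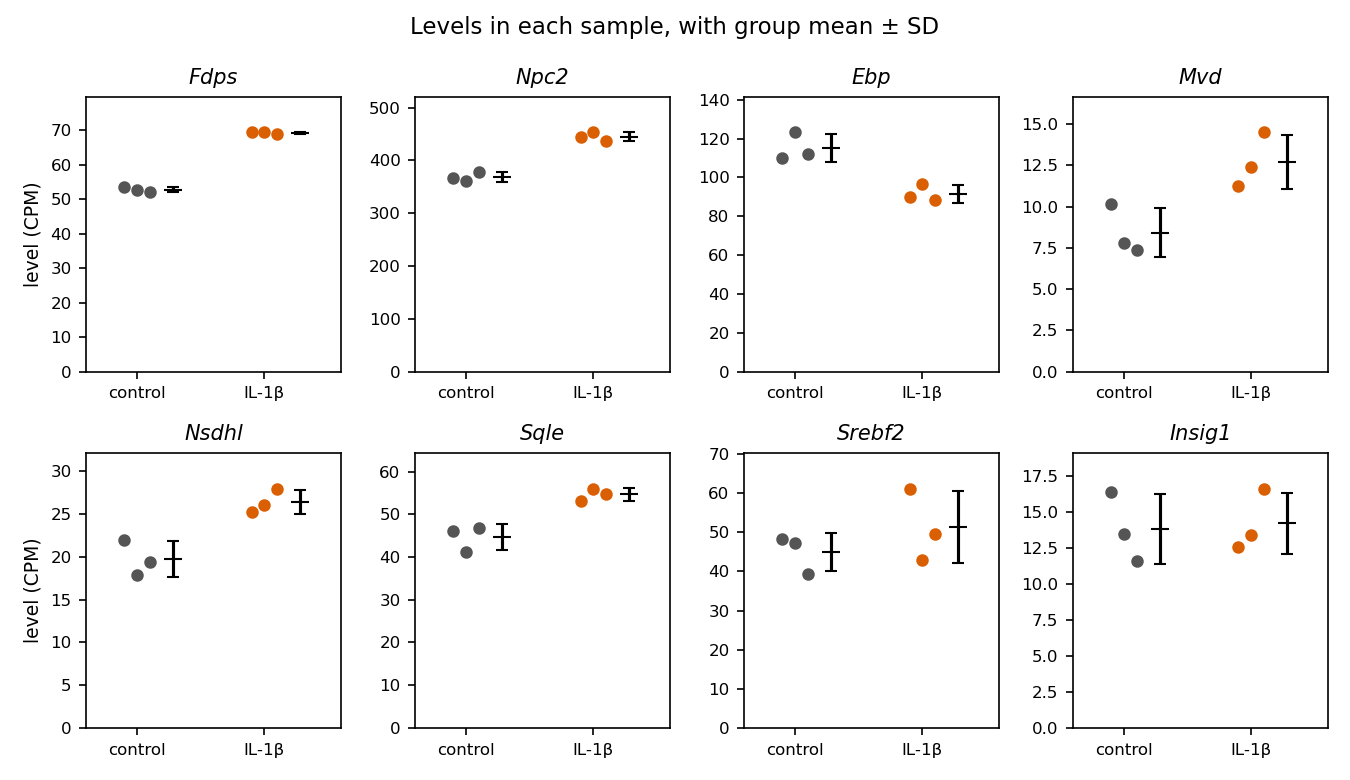
Level in CPM (y axis, from 0) of 8 genes in each control and IL-1β sample (points), with the group mean and SD beside them (n = 3 per group). The 6 called genes show no overlap between the groups, while Srebf2 and Insig1 overlap.

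None of the 4 genes of SREBP2 control was called by edgeR, DESeq2 or limma, and 0 had an unadjusted p below 0.05. Of all genes tested 23.6% had one, and 4 genes are too few to be told apart from that share. Srebf2, which encodes SREBP2, had 48.2, 47.3 and 39.3 CPM in the controls and 61.1, 42.9 and 49.6 CPM after IL-1β. The groups overlapped, and IL-1β replicate 1 was the highest sample. The log2 fold change was 0.19 with a 95% interval of -0.06 to 0.43. It was 0.05 without that replicate, 0.10 without control replicate 3 and 0.30 without IL-1β replicate 2. Insig1, itself a known target of SREBP2, had 16.4, 13.5 and 11.6 CPM in the controls and 12.6, 13.4 and 16.6 CPM after IL-1β. Its highest control and highest IL-1β sample nearly coincided, at a log2 fold change of 0.04 (-0.32 to 0.40).

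Insig2, the other anchor of the complex, had 0.02 (-0.15 to 0.19), at 120.4 ± 11.7 CPM in the controls and 122 ± 7.46 CPM with IL-1β (mean ± SD, n = 3). Scap, the escort, had 0.05 (-0.13 to 0.23), at 64.4 ± 4.06 CPM and 66.7 ± 1.45 CPM, in the same order. All 4 intervals lay within a change of 1.5-fold in either direction. The signs of Scap, Insig1 and Insig2 turned with total-count scaling, to -0.0019, -0.01 and -0.03. Over the whole list, 16 of the 22 genes that were not called had intervals within 1.5-fold, and the intervals of Mvk, Pmvk, Idi1, Lbr, Soat1 and Soat2 reached past it. These are mRNA levels, and the cleavage of SREBP2 was not measured.

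In sterol transport, uptake and esterification, 1 of the 5 genes tested was called higher and 0 lower, again too few to set beside the 6.97% and 6.44% of all genes, and the median log2 fold change was -0.07. Npc2, at chr12:84754559-84773112 on the minus strand, encodes the soluble lysosomal protein that takes cholesterol from degraded lipoproteins and hands it to the membrane protein NPC1. Its level was 368, 360.4 and 378 CPM in the controls and 445, 453 and 437 CPM after IL-1β. The 2 groups were well apart, with little spread in either. Its log2 fold change was 0.27 (standard error 0.06, edgeR adjusted p = 0.00268) and stayed between 0.26 and 0.29 with a sample left out.

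Npc1 had 168, 179.6 and 172 CPM in the controls and 202, 203 and 191 CPM after IL-1β. Here too every IL-1β sample was above every control. The log2 fold change of 0.19 (standard error 0.07) had an edgeR adjusted p of 0.0602, and of 0.0443 with DESeq2 and 0.0498 over genes with at least 10 counts in every sample, within a range of 0.0432 to 0.218 over the alternatives. Npc1 overlaps 3110002H16Rik on the opposite strand.

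Soat1 and Soat2 encode the acyltransferases that store cholesterol as esters. Soat2 had 16.3, 14.9 and 11.8 CPM in the controls and 13.3, 9.61 and 12.0 CPM after IL-1β. The groups overlapped through control replicate 3, and the log2 fold change was -0.31 (-0.68 to 0.06), with -0.43 without control replicate 3 and -0.18 without IL-1β replicate 2. Soat1, with 35 to 59 counts in a library, had -0.07 (-0.69 to 0.56). Stard4, a carrier of sterol between membranes, had -0.08 (-0.50 to 0.33). Mylip, a ubiquitin ligase that limits lipoprotein uptake, had too few counts to be tested, with 8, 9 and 19 in the controls and 4, 8 and 11 after IL-1β.

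Ratios between related genes within a library, which depend little on the scaling factor, were compared for 4 pairs after 0.5 CPM was added. The log2 ratio of Npc1 to Npc2 was -1.12, -1.003 and -1.13 in the controls and -1.14, -1.16 and -1.19 after IL-1β, a difference of -0.08. The groups did not overlap, which gives the smallest p this design allows (exact permutation test, two-sided p = 0.1, 0.4 adjusted over the 4 ratios). Without control replicate 2, the difference was -0.04. The ratio of Tm7sf2 to Lbr differed by -0.35 and that of Soat1 to Soat2 by 0.24, each with overlapping groups (exact permutation test, two-sided p = 0.3, adjusted p = 0.4). Single libraries moved both: the first was -0.12 without control replicate 1 and -0.59 without control replicate 2, and the second was 0.15 and 0.39 without IL-1β replicates 2 and 3. For Insig1 to Insig2 the difference was 0.02 (exact permutation test, two-sided p = 1, adjusted p = 1), and the log2 ratio spanned -3.42 to -2.67 among the controls alone.

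Genes outside the sterol route that SREBP proteins are also known to raise, mostly of fatty acid synthesis, were called in both directions. Of 14 tested, 4 were higher (28.6%) and 2 lower (14.3%), beside 6.97% and 6.44% of all genes tested, with a median log2 fold change of 0.12. Acss2, which makes acetyl-CoA from acetate, had 4.79, 5.10 and 5.04 CPM in the controls and 11.4, 10.1 and 11.9 CPM after IL-1β. Its levels after IL-1β were at least 10.1 CPM and those of the controls at most 5.10 CPM, at a log2 fold change of 1.16 (standard error 0.21, edgeR adjusted p = 0.000313). Acaca, the acetyl-CoA carboxylase of fatty acid synthesis, had 0.51 (edgeR adjusted p = 0.00995), with 0.0721 without control replicate 2 and 0.0982 without IL-1β replicate 2. Scd1, the desaturase that makes oleate, went the other way, from 539, 494 and 409 CPM in the controls to 229, 213 and 237 CPM after IL-1β. That is a log2 fold change of -1.08 (standard error 0.08, edgeR adjusted p = 1.69e-10), with no overlap. Fads1, a desaturase of polyunsaturated fatty acids, had -0.37 (edgeR adjusted p = 0.00562, and 0.053 without IL-1β replicate 3). The other 2 calls, named after their values were seen, were Elovl6 (0.35, edgeR adjusted p = 0.0242) and Fasn (0.26, edgeR adjusted p = 0.0468). Both are genes of fatty acid chain building, and their values under the alternatives were not followed. DESeq2 called 5 of the 14 and limma 6. With 4 of 14 higher against 5 of 28 in the sterol list, no difference between the lists was tested.

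Among genes that cleave SREBP or degrade sterol-regulated proteins at the endoplasmic reticulum, 0 of 16 were called by edgeR, DESeq2 or limma, beside 6.97% of all genes called higher and 6.44% lower, and 1 had an unadjusted p below 0.05, beside 23.6% of all genes. The median log2 fold change was 0.00077. Vcp, the segregase that extracts proteins for degradation, had 0.07 (-0.06 to 0.20), and Pgrmc1, a haem-binding membrane protein, had -0.13 (-0.26 to -0.0044). In the isoprenoid branch, 1 of 14 genes was higher and 0 lower, and 7.14% is close to the 6.97% of all genes tested. That gene was Nus1, a subunit of the enzyme that makes the dolichol chain, with 94.7, 102 and 111 CPM in the controls and 139.7, 132 and 132 CPM after IL-1β. Its groups did not overlap, at a log2 fold change of 0.39 (standard error 0.08, edgeR adjusted p = 0.000808).

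Of 7 genes tested of LXR itself, its targets and sterol efflux, 1 was higher (14.3%, beside 6.97% of all genes) and 0 lower. The median log2 fold change was -0.19, with 6 of the 7 below 0. Groups did not overlap with IL-1β lower in 2 (28.6%, beside 14.2% of all genes), named after their values were seen. These were the LXR gene Nr1h3 (-0.30, edgeR adjusted p = 0.126) and Scarb1 (-0.19, edgeR adjusted p = 0.212). Abca1, the pump that loads cholesterol onto apolipoprotein A-I, had 37.9, 36.6 and 40.7 CPM in the controls and 79.5, 78.0 and 74.3 CPM after IL-1β. The lowest IL-1β sample was far above the highest control, at a log2 fold change of 1.01 (standard error 0.09, edgeR adjusted p = 6.57e-09). Of 4 oxysterol enzymes tested, 1 was higher and 0 lower, too few for a share to be read. Limma called 2 of the 4, and 2 of the 4 had log2 fold changes below 0. Cyp7b1, an oxysterol hydroxylase of bile acid synthesis, had 31.8, 45.03 and 38.0 CPM in the controls and 69.2, 66.5 and 70.5 CPM after IL-1β. These did not overlap either, and the log2 fold change was 0.84 (standard error 0.11, edgeR adjusted p = 2.3e-06).

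Of 14 genes of lysosomal and non-vesicular sterol transport, 1 was higher (7.14%, close to the 6.97% of all genes) and 2 lower (14.3%, beside 6.44%), with a median log2 fold change of -0.03. Stard5, a sterol-binding carrier, had 24.1, 21.6 and 17.1 CPM in the controls and 31.9, 31.4 and 31.0 CPM after IL-1β, at a log2 difference of 0.59 (edgeR adjusted p = 0.00241). Nceh1, a cholesteryl ester hydrolase, had 27.1, 34.2 and 28.4 CPM and 21.7, 20.3 and 18.2 CPM in that order, a log2 fold change of -0.58 (edgeR adjusted p = 0.00278). Gramd1b, which moves cholesterol from the plasma membrane to the endoplasmic reticulum, had 7.61, 6.71 and 5.74 CPM and 3.21, 2.98 and 2.79 CPM, a log2 fold change of -1.16 (edgeR adjusted p = 0.00503). In each of these 3 genes the groups did not overlap.

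The label of the cells was checked against hepatocyte markers. Alb, the serum albumin gene, was the most abundant, with means of 16200.2 ± 516 CPM for the controls and 14104 ± 577 CPM for IL-1β (± SD, n = 3). The 12 markers summed to 36520.2, 37493 and 37898 CPM in the controls and 30035, 32348 and 31771 CPM after IL-1β, and 7 of the 9 tested were called lower (77.8%, beside 6.44% of all genes) and 0 higher, with a median log2 fold change of -0.33. DESeq2 called 6 of the 9 and limma 5. Apoe, which encodes a lipoprotein component, had -0.26, Gc, the vitamin D-binding protein, -0.58, and Fgb, a fibrinogen chain, -0.04, of which Fgb was not called. Alb had -0.20 (edgeR adjusted p = 0.0113), and the call was lost with limma (0.0882), without control replicate 2 (0.0744) and without IL-1β replicate 1 (0.0894). Several defining markers were near 0 in all 6 libraries: Cps1 and Ass1 of the urea cycle and Pck1 and G6pc of glucose production were at most 3.22 CPM. Their part in the results on sterol genes was not tested.

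Markers of other liver cells were present, at summed levels far below those of the hepatocyte markers. The 14 Kupffer cell and macrophage markers summed to 248, 279.9 and 276 CPM in the controls and 258, 254 and 287 CPM after IL-1β, most of it Cd68, a lysosomal protein. Of 11 tested, 0 were called by edgeR, DESeq2 or limma, and 3 had an unadjusted p below 0.05, near the 23.6% of all genes. The median log2 fold change was 0.31, with 8 of the 11 above 0. Those of the 4 most abundant markers were -0.06 for Cd68, -0.02 for the protease gene Ctss, -0.21 for Cd5l and 0.56 for Cd74, the invariant chain (edgeR adjusted p = 0.0658, and 0.0235 without control replicate 1). The other markers tested, named after their values were seen, were all above 0 and not called. They had 0.64 (Adgre1), 0.44 (Csf1r), 0.67 (Marco), 0.75 (C1qa), 0.31 (C1qb), 0.21 (C1qc) and 0.02 (Lyz2). The Kupffer cell markers Timd4 and Vsig4 were at or near 0, at most 0.705 CPM. Clec4f, also named after its values were seen, had 0 to 2.42 CPM and was not tested, while Marco had 2.86 to 7.27 CPM.

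The 10 endothelial markers summed to 83.9, 84.1 and 91.2 CPM in the controls and 83.1, 81.3 and 87.6 CPM after IL-1β, with Eng, a TGF-β co-receptor, the most abundant (0.02). Of 9 tested, 1 was higher (11.1%, beside 6.97% of all genes) and 2 lower (22.2%, beside 6.44%), with a median log2 fold change of -0.31. Lyve1, the hyaluronan receptor, was higher at 0.45 (edgeR adjusted p = 0.0274, then 0.0507 with total-count scaling, 0.0965 without control replicate 1, 0.0807 without control replicate 3, and, without IL-1β replicate 2 or 3, 0.137 or 0.0851). Cdh5 and Pecam1, adhesion proteins of these cells, had 0.32 and -0.31 and were not called, and Pecam1 had -0.03 without control replicate 3 and -0.58 without control replicate 2. The 2 lower genes, named after their values were seen, were Kdr (-1.49) and Clec4g (-2.87), at 4.55 and 5.80 CPM in the controls. The 10 stellate cell and fibroblast markers summed to 44.3, 43.2 and 40.6 CPM and 43.4, 44.9 and 47.5 CPM, most of it Sparc (0.02) and Dcn (0.14), genes of matrix proteins. Of 3 tested, 0 were called by edgeR, DESeq2 or limma, and 0 had an unadjusted p below 0.05, too few to set beside the 23.6% of all genes. The collagen gene Col3a1 had 0.52 and was not called, Col1a2 was too low to be tested, and the defining markers Lrat and Des were at or near 0.

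The 7 cholangiocyte markers summed to 326, 317 and 329 CPM in the controls and 236, 239.8 and 236 CPM after IL-1β. Sox9, a transcription factor (0.21, edgeR adjusted p = 0.0519), and Spp1, the osteopontin gene (-1.20, edgeR adjusted p = 4.36e-12), made up almost the whole sum, with Spp1 the most abundant in the controls and Sox9 after IL-1β. Spp1 was called lower by edgeR, and DESeq2 and limma called Sox9 as well (adjusted p = 0.0414 and 0.048), as did the fits with a minimum of 10 counts per library (0.0447) and without control replicate 1 (0.0473), while total-count scaling gave 0.192. The defining markers Krt19, Krt7 and Epcam, like Cldn7, were near 0 in every library, at most 1.07 CPM. Of 5 neutrophil markers, S100a9, Mpo, Elane and Retnlg were at 0 in all 6 libraries. S100a8 was at 0 in the controls and at 2.03, 3.46 and 4.74 CPM after IL-1β, at least 12.0-fold higher against a floor of 3 counts per control library. The part of other cell types in the results on sterol genes was not tested.

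Promoter windows of 300 bases, 250 before and 50 after the transcription start (RefSeq, GRCm38.p6), were matched for 23 of the 29 genes and searched on both strands for motifs linked to SREBP2 targets. The NF-Y box CCAAT was in a window of 21 of the 23 genes, or 91.3%, and in 41.1% of all 27025 genes with a window (37.4% of all windows). The Sp1 box GGGCGG was in 22 of the 23, or 95.7%, against 38.2% of all genes. The sterol regulatory element, searched as TCACNCCAC, was in 1 of the 23, Hmgcs1, against 1.44% of all genes. The 27025 genes outnumber the 11657 tested for expression, so they include genes that were not tested. Shares among expressed genes alone were not computed. A match describes these letters only, and a window without one says nothing about binding of the factor. Acat2 and Scap were the genes without a CCAAT box. They were among the 22 of 28 tested genes that were not called, and no link between box and call was tested. Windows of Fdps, Sqle, Fdft1, Soat2, Npc1 and Stard4 were not analysed here, among them the called genes Fdps and Sqle. The windows of Mvd, Nsdhl, Npc2 and Ebp are shown because these genes were called, and that of Hmgcs1 because it holds the sterol regulatory element. Capitals mark CCAAT or its reverse ATTGG, and in Hmgcs1 also TCACCCCAC, which does not overlap a CCAAT box there. Sp1 boxes are not marked.
Mvd, chr8:122443373-122443672, minus strand: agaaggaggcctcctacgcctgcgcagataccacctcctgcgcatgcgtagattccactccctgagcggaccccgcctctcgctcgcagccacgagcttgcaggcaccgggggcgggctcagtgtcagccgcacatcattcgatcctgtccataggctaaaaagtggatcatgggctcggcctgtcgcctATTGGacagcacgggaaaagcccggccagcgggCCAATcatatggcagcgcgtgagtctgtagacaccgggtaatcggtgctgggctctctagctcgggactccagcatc
Nsdhl, chrX:72918271-72918570, plus strand: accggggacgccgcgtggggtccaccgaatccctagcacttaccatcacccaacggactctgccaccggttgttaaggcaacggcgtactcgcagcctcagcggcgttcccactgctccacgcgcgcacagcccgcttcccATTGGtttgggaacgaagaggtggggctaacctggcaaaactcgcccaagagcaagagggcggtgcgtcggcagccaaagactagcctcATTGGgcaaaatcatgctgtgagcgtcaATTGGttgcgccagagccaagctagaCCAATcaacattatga
Npc2, chr12:84773063-84773362, minus strand: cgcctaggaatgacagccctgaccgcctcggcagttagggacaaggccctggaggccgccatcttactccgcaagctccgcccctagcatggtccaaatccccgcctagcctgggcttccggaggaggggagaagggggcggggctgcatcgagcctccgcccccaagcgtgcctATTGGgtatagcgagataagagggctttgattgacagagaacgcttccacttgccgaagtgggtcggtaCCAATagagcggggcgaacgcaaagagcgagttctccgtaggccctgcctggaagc
Ebp, chrX:8193463-8193762, minus strand: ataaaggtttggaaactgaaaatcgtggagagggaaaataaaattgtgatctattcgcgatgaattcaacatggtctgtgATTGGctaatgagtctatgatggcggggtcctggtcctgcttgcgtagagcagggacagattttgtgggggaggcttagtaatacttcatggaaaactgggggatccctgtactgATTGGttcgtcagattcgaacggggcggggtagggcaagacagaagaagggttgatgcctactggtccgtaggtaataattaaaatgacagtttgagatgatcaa
Hmgcs1, chr13:119690101-119690400, plus strand: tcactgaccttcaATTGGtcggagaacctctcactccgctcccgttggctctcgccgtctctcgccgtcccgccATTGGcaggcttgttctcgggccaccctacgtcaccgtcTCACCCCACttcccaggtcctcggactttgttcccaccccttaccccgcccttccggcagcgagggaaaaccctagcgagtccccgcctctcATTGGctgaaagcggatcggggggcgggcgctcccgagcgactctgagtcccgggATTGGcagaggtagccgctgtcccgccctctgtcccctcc

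Within the 300 bases, Nsdhl held 4 CCAAT boxes, Hmgcs1 4, and Mvd, Npc2 and Ebp 2 each. Mvd, called higher, and Ebp, called lower, each had 2 CCAAT boxes and 1 Sp1 box. Mvk, with 5 CCAAT boxes, had a log2 fold change of -0.14 and was not called.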

How the data were processed

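Per the labels, the authors aligned single-end 75-nt QuantSeq reads of 6 libraries with Bowtie2 (builds mm10 and GRCm38 in their notes) and deposited raw read counts per gene, the values used here. The authors' log2 normalized values, group averages, fold changes and p-values were not used. The comparison ran in edgeR 4.0.16 under R 4.3.3 (filterByExpr, TMM, quasi-likelihood test, Benjamini-Hochberg adjustment over 11657 genes). Ratios used exact permutation tests in scipy 1.17.1 (Python 3.11.15), adjusted with statsmodels 0.14.6, and plots matplotlib 3.10.9. Alternatives were DESeq2 1.42.0, limma 3.58.1, other scalings, filters, tests and thresholds, a replicate block and each sample left out. Shared 3′ windows came from GENCODE M21 transcripts. The 29 genes and the lists were chosen with earlier results of these data known. Named genes were all 29, of each pathway list at most 4 with the smallest adjusted p below 0.05 (or the 2 most abundant), and of each marker list the 4 most abundant. Beyond this rule, markers at or near 0 were named, as were the genes marked as named after their values were seen.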

Additional observations from a re-analysis of the deposited data

How the results depend on the processing

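The number of genes called, 1563 of 11657, was 547 with an unmoderated test on log2(CPM + 1), 1034 under a threshold of 1.5-fold with unadjusted p below 0.05, and 1131 to 1596 with a sample left out. The number of sterol genes called higher, 5, was 2 with total-count scaling, 3 with upper-quartile scaling, 2 with the unmoderated test, 1 at the fold threshold and 2 to 5 with a sample left out. Over all genes tested, the number called higher, 812, was 662 with total-count scaling, 733 with upper-quartile scaling and 317 with the unmoderated test. With a sample left out it was 614 to 875. The number called lower, 1, was 0 with the unmoderated test and at the fold threshold. Their median log2 fold change of 0.06 was 0.011 with total-count and 0.035 with upper-quartile scaling, which moved the median of all genes to -0.055 and -0.030, and 0.049 to 0.097 with a sample left out. Signs turned in values near 0. With total-count scaling these were Fdft1 (-0.020), Cyp51 (-0.026), Scap (-0.0019), Insig1 (-0.012), Insig2 (-0.033), Eng (-0.039) and Sparc (-0.036), and with upper-quartile scaling Cyp51 (-0.00057), Insig2 (-0.0075), Eng (-0.013) and Sparc (-0.011). With a sample left out, the ranges that crossed 0 were -0.26 to 0.041 for Mvk, -0.040 to 0.17 for Fdft1, -0.10 to 0.27 for Lss, -0.060 to 0.097 for Cyp51, -0.20 to 0.12 for Tm7sf2, -0.12 to 0.12 for Hsd17b7, -0.25 to 0.035 for Dhcr7, -0.085 to 0.18 for Insig1, -0.057 to 0.072 for Insig2, -0.19 to 0.021 for Stard4, -0.25 to 0.090 for Soat1, -0.11 to 0.017 for Fgb, -0.077 to 0.022 for Ctss, -0.048 to 0.12 for Eng and -0.016 to 0.045 for Sparc. The difference in the Insig1 to Insig2 ratio ranged from -0.15 to 0.23. The cause of these shifts was not tested. The unmoderated test kept Fdps and Npc2 among the sterol genes. Outside them it lost Nus1 (0.0798), Fads1 (0.147), Acaca (0.232), Cyp7b1 (0.0691), Stard5 (0.128), Nceh1 (0.114), Alb (0.11), Apoe (0.148) and Lyve1 (0.195). Weaker or stronger values of single genes with all samples kept, these included, numbered 11 and 3 among the sterol genes and 11 and 4 among the other named genes. Searching only the 250 bases before the start left CCAAT in 21 and the sterol element in 1 of the 23 genes, and GGGCGG in 21.

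Samples with the same replicate number did not deviate together (correlations 0.0616, 0.00793 and 0.0038 over genes), and not every sample correlated best with its own number. With a replicate block, 1671 genes were called, and 6 sterol genes were higher, with Npc1 added (adjusted p = 0.0432), and 1 lower. The median log2 fold change was then 0.06. At this depth, the intervals of genes with few counts, such as Soat1 and Mvk, reached past 1.5-fold, so changes of that size could have been missed.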
